A study of Mus musculus with 8 samples.

Results

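Long intergenic noncoding RNAs are transcripts from between protein-coding genes that carry no long reading frame. Many were first mapped as stretches of chromatin bearing the marks of transcription, and they are known for low abundance, retention in the nucleus and rapid turnover by the RNA exosome, a nuclease complex. A few, such as Malat1 and Neat1, are abundant nuclear RNAs of most cells. The array used here carries probes for intervals of this kind that have no gene name. Each interval is named by its chromosome, start, end and strand. Each probe is a DNA strand of 60 bases meant to report RNA from the named strand. Probes with a position carry the sequence of that same strand.

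The members are all non-control probes of the array whose name starts with a chromosome and a colon, on the autosomes. The rule uses only the name, so no measured value chose them. It gave 15617 of the 55681 probes of the array (28.0%), standing for 4432 names over 3390 genomic intervals, with 7903 probes for forward and 7714 for reverse strands. The 577 such probes on the X chromosome were left out. The intervals span 62 bases to 7.1e+06 bases with a median of 7451, and a name has 1 to 10 probes with a median of 3. For 13 probes of 3 names the strand stands only in the probe's description, and 118 probes have no position. All positions below are on mouse build mm9, as the scanner files give them.

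The probes were hybridised with RNA from bone marrow-derived macrophages, which are macrophages grown in culture from marrow precursors, of male C57BL/6J mice. Cells of 4 mice were transfected either with a control siRNA or with siRNA against the terminal loop of RNY, the Y RNAs, short structured transcripts that associate with Ro60 and La proteins. This gave 4 arrays per group and 8 in all, and the study asks which transcripts respond to the small RNAs cut from Y RNAs. The labels state neither the age of the mice nor the sequence, dose and duration of the siRNA treatment. The RNA integrity number was 10 for 7 arrays and 8 for control cells of mouse 4. No probe (0) is named or described as a Y RNA, so silencing of the target itself was not analysed here.

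Levels are log2 signals minus the 75th percentile of the same array, so 0 is the brightness of that percentile and 1 unit is a doubling. A probe counts as above background on an array where the scanner software marks its spot well above background, and it was kept for tests where this held on at least 4 of the 8 arrays. The 75th percentile itself lay between 9.04 and 9.34 on the log2 scale with both arrays of mouse 1 at the bottom, at 9.04. All 8 arrays shared 1 slide. The siRNA arrays lay in other slide columns than the control arrays, and effects of column and of siRNA cannot be told apart. All 9 macrophage markers on the list, among them Csf1r, Cd68 and Lyz2, were above background on all 8 arrays, while 4 of 4 erythroid markers were on none. Of the other lists, 2 of 5 T cell, 1 of 4 B cell, 2 of 5 neutrophil, 1 of 4 dendritic cell and 2 of 4 fibroblast markers were above background on all 8 arrays.

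The probes on which the results turn are shown here as the array's own 60-base sequences, 5′ to 3′. The first lies inside the interval of Malat1 and is among the 6 brightest members. The next pair reads both strands of the same stretch of chromosome 11, with the 47 bases that are the reverse complement of the partner in capitals. Then come a pair of GC-rich probes for both strands of an interval on chromosome 12, a pair from 1 interval on chromosome 8 that differed between mice, and the 3 members with the smallest p between the siRNA groups. The last probe is a tandem repeat, with the first copy of its 23-base unit in capitals.
A_30_P01031754, chr19:5801802-5802597 reverse: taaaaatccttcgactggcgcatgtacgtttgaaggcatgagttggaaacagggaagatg
A_30_P01024472, chr11:35805295-35817263 forward: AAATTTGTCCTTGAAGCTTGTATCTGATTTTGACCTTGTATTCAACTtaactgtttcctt
A_30_P01017641, chr11:35805295-35817263 reverse: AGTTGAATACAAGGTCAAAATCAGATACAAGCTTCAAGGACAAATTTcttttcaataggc
A_30_P01020570, chr12:73838608-73862621 forward: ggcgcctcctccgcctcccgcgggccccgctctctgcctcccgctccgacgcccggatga
A_30_P01031264, chr12:73838608-73862621 reverse: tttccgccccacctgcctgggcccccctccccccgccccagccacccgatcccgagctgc
A_30_P01032489, chr8:41934312-41945487 reverse: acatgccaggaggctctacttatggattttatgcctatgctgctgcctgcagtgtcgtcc
A_30_P01028856, chr8:41934312-41945487 reverse: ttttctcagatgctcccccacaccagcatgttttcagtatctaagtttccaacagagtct
A_30_P01032172, chr14:55671783-55680316 forward: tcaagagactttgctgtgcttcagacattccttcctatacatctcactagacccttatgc
A_30_P01028370, chr10:60473030-60535340 forward: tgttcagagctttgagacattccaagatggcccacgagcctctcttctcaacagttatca
A_30_P01019403, chr5:110097500-110118475 reverse: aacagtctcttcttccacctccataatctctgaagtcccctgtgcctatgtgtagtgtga
A_30_P01017434, chr1:134237581-134248506 reverse: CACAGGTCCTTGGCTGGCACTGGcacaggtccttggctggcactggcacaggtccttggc

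Most coordinate-named probes gave no signal above background in these macrophages, and most of those that did were dim. Of the 15617 members, 8576 (54.9%) were above background on 0 arrays, 4072 (26.1%) on all 8, and the remaining probes lay between. The kept members numbered 4928, or 31.6%, against 54.6% of the 40064 other probes of the array. Kept members had a median level of -2.62, with the 10th percentile at -4.11 and the 90th at 0.94, and kept other probes had a median of 0.67. Probe signals depend on the probe's own sequence as well as on RNA, so these medians describe the array's 2 kinds of probe and rank no transcript. A mean level above 0 was reached by 796 kept members (16.2%) and by 56.7% of other kept probes, and a level above 5 by 58 kept members (1.18%).

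**Figure D1:**
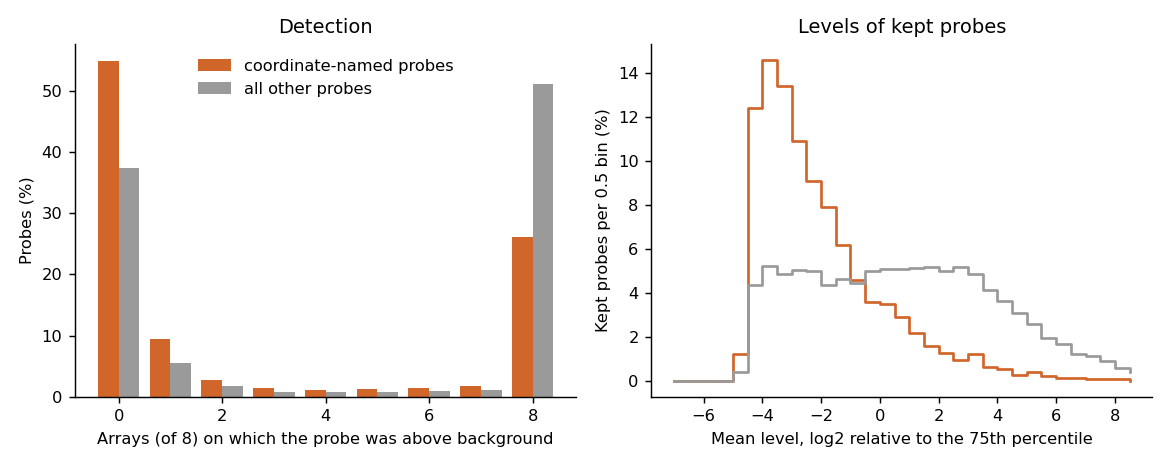
The left panel plots the percentage of probes by the number of arrays (0 to 8) on which they were above background, for coordinate-named and all other probes, and the right panel plots the mean levels of kept probes in bins of 0.5 log2 units. Coordinate-named probes sit mostly at 0 arrays (54.9%), and those that were kept lie lower than other kept probes (median -2.62 against 0.67).

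Detection was patchy within an interval. Of the 3261 names with at least 3 probes, 384 (11.8%) had every probe kept, 1533 (47.0%) had some kept and 1344 (41.2%) had none kept. At least 1 kept probe was found for 2427 of the 4432 names (54.8%). Probes of 1 name can fall in exons, introns or unspliced flanks of a transcript, which the files do not record. Distance from the probe to the 3′ end of the named interval made little difference: 29.4% of 4980 probes within 500 bases of the end were kept, and 32.7% of 3967 probes 10000 or more bases away.

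Base composition went with detection more closely. Of members under 35% GC, 13.0% of 416 were kept, of those with 45% to under 50% GC 29.2% of 5421, and of those with 55% GC or more 52.0% of 1989. Other probes ran from 40.7% to 65.9% across the same end bins, so the span was wider among the coordinate-named probes. The part of GC content in the signal itself was not tested. Among chromosomes, the share kept ran from 20.5% of 736 probes on chromosome 9 to 40.6% of 904 on chromosome 17.

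Detection also went with the nearest probe that is not named by coordinates. Such probes are called gene-named here, though some carry only a transcript code or their own probe ID. Where such a probe lay within 1000 bases on the same strand and was itself kept, 72.1% of 648 members were kept, with a median level of -1.29. Where the same-strand neighbour within 1000 bases was not kept, the share was 20% of 575. For neighbours within 1000 bases on the opposite strand, the shares were 36.0% of 658 and 22.2% of 248. At distances of 100000 bases or more on the same strand, they were 26.0% and 19.4%. The gap between the shares was thus widest for close neighbours on the same strand among the distances compared. Whether such intervals extend the gene was not tested.

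Some members read sequence that a gene-named probe also reads. A stretch of 30 or more identical bases was shared with a gene-named probe by 200 members, of which 54.0% were kept, against 31.3% of the 15417 others. Among the 20 brightest members there were 4 such probes (20%), and among the 500 brightest 35 (7%). The array also holds 74 members whose 60 bases are identical to those of a gene-named probe, which measures how well 2 spots of 1 sequence agree. Both spots were kept in 37 of these pairs, neither in 33 and only 1 in 4. In the 37 pairs the levels differed by a median of 0.11 and at most 0.58 log2 units, and the siRNA differences by a median of 0.07 and at most 1.14.

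The 6 brightest members have levels from 7.81 to 8.40, and their siRNA differences lay between -0.10 and 0.03. The brightest, A_30_P01022075 on the reverse strand of chr17:17481706-17482457, measured 8.37, 8.42, 8.43 and 8.39 in control cells of mice 1 to 4 and 8.44, 8.39, 8.36 and 8.39 with the RNY loop siRNA. The groups overlap. A same-strand probe named for Oaz1, an inhibitor of polyamine synthesis, is placed 183 bases away. How far Oaz1 RNA contributes to the signal of this member was not tested. A_30_P01026458 on the reverse strand of chr11:22681800-22707775 had means of 8.13 ± 0.09 (SD, n = 4) in control and 8.16 ± 0.11 (SD, n = 4) in siRNA cells. It shares 45 bases with a probe for Rps16, a protein of the small ribosomal subunit. How far Rps16 RNA contributes to its signal was not tested. A_30_P01031448 (chr14:78924115-78938125, forward) is 83.3% GC. Its nearest same-strand probe not named by coordinates, A_55_P1971137, carries only its own ID and lies 75208 bases away. Its levels were 8.42, 8.15, 8.18 and 8.23 in control and 8.47, 8.19, 8.14 and 8.25 in siRNA cells, again overlapping, with mouse 1 highest in both groups. A_30_P01030669 on the reverse strand of chr7:108209996-108216032, at a mean level of 7.93, has no probe position in the files. A_30_P01032305, on the forward strand of chr8:48476637-48492537, is described with the strand pairs.

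The member inside Malat1, A_30_P01031754, measured 8.02, 7.80, 7.82 and 7.82 in control cells and 7.77, 7.82, 7.62 and 7.85 in siRNA cells. The groups overlap, and control mouse 1 is the highest. The difference was -0.10 ± 0.08 (SE), with an adjusted p of 1.00 by limma. The array lists Malat1 a second time under its older name NEAT2, as chr19:5795689-5802671 on the reverse strand, so this unnamed interval lies wholly within a named long noncoding RNA. Its 3 NEAT2 probes, at the other end of the transcript, gave siRNA differences of 0.12, 0.05 and 0.15 with SEs of 0.15, 0.16 and 0.19. None of these differences exceeds its spread.

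The siRNA comparison asks which intervals changed when the Y RNA loop was targeted. With limma and Benjamini-Hochberg adjustment over all 26818 kept probes, 0 of the 4928 kept members passed an adjusted p of 0.05, as did 0% of all kept probes. At an unadjusted p under 0.05 there were 218 members, of which 161 were lower and 57 higher with the RNY loop siRNA. These are 3.27% and 1.16% of the members, beside 1.8% lower and 1.53% higher over all kept probes. The lower calls made up 73.9% of the members' and 54.0% of all such calls. With each array centred on its median in place of the 75th percentile, the lower share was 52.9% for the members and 30.2% for all. When mouse was fitted as a fixed block, 479 members (9.72%, beside 8.69% of all kept probes) had an unadjusted p under 0.05, and as a random block 547 (11.1%, beside 9.06%). Neither blocked fit called a member after adjustment, with smallest adjusted p of 0.32 and 0.073, and the random block called 3 probes that are no members. With normexp background correction 75 members had an unadjusted p under 0.05, 52 lower and 23 higher, and their share (1.52%) was then below that of all kept probes (1.93%). With normexp and quantile scaling there were 142 (2.88%, beside 2.90% of all).

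The differences were small throughout. The median difference over kept members was -0.02 log2 units and over all kept probes 0.00. By mouse, the members' median was -0.05, 0.02, -0.05 and -0.02, so mouse 2 went the other way, and with median centring the members' median was 0.01 beside 0.03 for all. The middle 90% of members lay between -0.33 and 0.23. The 95% interval of the difference excluded a change of 2-fold or more for 93.5% of kept members and of 1.5-fold or more for 75%, beside 95.4% and 83.8% of all kept probes. Lower in all 4 mice were 516 members (10.5%, against 9.01% of all kept probes) and higher in all 4 were 236 (4.79%, against 9.76%).

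Lower values outnumbered higher ones most among dim probes. Of 672 members with a mean level under -4, 5.65% were lower and 1.34% higher at an unadjusted p under 0.05, and of 1039 other probes that dim 4.91% and 2.60%. Between -4 and -3, 4.57% of 1380 members were lower and 1.52% higher, beside 3.62% and 2.04% of 2207 other probes. Of 1677 members between -3 and -1, 2.44% were lower and 0.89% higher, whereas of 4162 other probes 1.73% were lower and 2.02% higher. Of 903 members between -1 and 2, 1.99% were lower and 1.33% higher, beside 1.12% and 2.07% of 6536 other probes. Above a level of 2, 1 of 296 members (0.34%) was lower and 0 were higher, beside 0.57% and 0.78% of 7946 other probes. The median standard error fell from 0.20 in the dimmest of these bins to 0.09 in the brightest among the members.

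**Figure D2:**
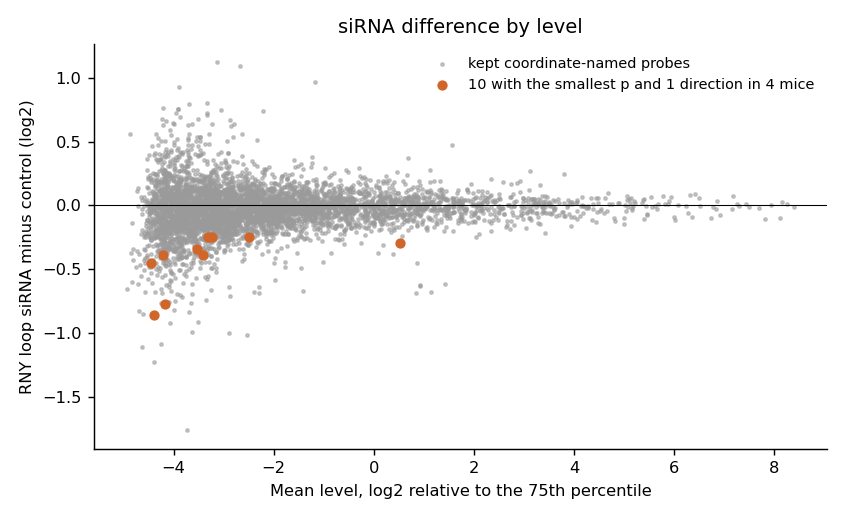
The difference between RNY loop siRNA and control (log2, vertical axis) is plotted against the mean level (log2 relative to the 75th percentile, horizontal axis) for the 4928 kept coordinate-named probes as grey points. The 10 probes with the smallest unadjusted p and 1 direction in all 4 mice are orange, all lie below 0, and 9 of them have a mean level below -2.

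The 10 members with the smallest unadjusted p among those of 1 direction in all 4 mice were all lower with the RNY loop siRNA, and none passed the adjusted threshold. This choice favours groups that do not overlap and a narrow spread, so neither adds evidence for these 10. The first, A_30_P01032172 on the forward strand of chr14:55671783-55680316, measured -3.94, -3.88, -4.14 and -3.85 in control cells and -5.12, -4.52, -4.77 and -4.83 in siRNA cells. The groups do not overlap, and the probe was above background on 4 of 4 control and 0 of 4 siRNA arrays. It was thus kept only through the control arrays. Against the lowest measurable signal on the main scale it was at least 1.47-fold lower with the siRNA (0.56 log2 units). That bound takes no account of the spread and is not met with normexp, where the difference was -0.27 log2 units. In the main fit the limma adjusted p was 0.71, and 0.073 with the mouse as a random block. The probe lies 640 bases from a probe for Zfhx2, a zinc finger homeobox gene, on the opposite strand, which was on 0 arrays above background. Other probes of the same interval did not follow: A_30_P01019517 and A_30_P01025500, both on all 8 arrays, differed by -0.07 ± 0.12 and 0.01 ± 0.10 (SE).

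A_30_P01028370, on the forward strand of chr10:60473030-60535340, measured -3.99, -3.78, -3.77 and -3.63 in control cells and -4.80, -4.86, -4.29 and -4.31 in siRNA cells. The groups do not overlap, and 1 of the 4 siRNA arrays was above background. The difference was -0.77 ± 0.15 (SE), with an adjusted p of 0.95 by limma. With the mouse as a random and as a fixed block, the limma adjusted p was 0.097 and 0.33. Its only other kept probe, A_30_P01032330, differed by -0.08 ± 0.09. A_30_P01019403, on the reverse strand of chr5:110097500-110118475, was above background on all 8 arrays, at -2.41, -2.38, -2.33 and -2.37 against -2.57, -2.66, -2.62 and -2.64. Here too the groups do not overlap, with a narrow spread (SD 0.03 and 0.04). The difference was -0.25 ± 0.05 (SE), with an adjusted p of 0.95 by limma, and 0.13 (random) and 0.38 (fixed) with the mouse as a block. The other probe of that interval, A_30_P01024018, was above background on 0 arrays.

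A_30_P01025878, on the reverse strand of chr4:131734714-131741964, is the brightest of the 10, with levels of 0.58, 0.69, 0.75 and 0.64 in control and 0.41, 0.26, 0.48 and 0.33 in siRNA cells. The difference was -0.29 ± 0.07 (SE, limma adjusted p of 0.99998), and the groups do not overlap. With the mouse as a random and as a fixed block, the limma adjusted p was 0.15 and 0.40. The adjacent probe A_30_P01018287, above background on all 8 arrays, differed by -0.05 ± 0.15 (SE). A_30_P01027647 of the same interval, above background on 4 arrays, differed by -0.27 ± 0.15 (SE). A_30_P01025878 itself lies 2750 bases from the same-strand probe for Ythdf2, a reader of methylated adenosine in RNA, whose own difference was 0.00. With normexp background correction this member kept its size (-0.30). The other 9 shrank by over 1.5 times, to between -0.27 and -0.08, for example to -0.16 for both A_30_P01028370 and A_30_P01019403. The tandem-repeat probe A_30_P01017434 differed by -0.25 ± 0.06 (SE). Of the other 4 probes of that interval, which overlap it in position and were above background on all 8 arrays, 3 had differences from -0.20 to -0.14 and 1 of 0.11.

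The remaining 5 are A_30_P01027969 (chr16:4871449-4874336, reverse), A_30_P01024410 (chr5:121759042-121789992, reverse), A_30_P01032520 on chromosome 18, A_30_P01023522 (chr14:79311982-79334451, forward) and A_30_P01026512 (chr11:99048975-99062425, forward). A_30_P01024410 and A_30_P01026512 were above background on 4 control and 0 siRNA arrays, so both were kept only through the control arrays. Their bounds on the main scale are at least 1.22-fold and at least 1.27-fold lower, with limma adjusted p of 0.95 and 0.99998. With normexp their differences were -0.15 and -0.13 log2 units, short of these bounds (0.29 and 0.34 log2 units). For A_30_P01026512 the siRNA levels of mice 2 to 4 (-4.40, -4.24 and -4.33) exceeded their arrays' lowest level above background (-4.57, -4.54 and -4.55). Its 1.27-fold thus rests mostly on the probe's own dim levels. The other 3, above background on all 8 arrays, differed by -0.34, -0.24 and -0.39 in the order given. In 8 of the 10 intervals, 16 other probes were kept, and 14 of them had a difference below 0, 2 of these at an unadjusted p under 0.05. All 16 come from the same 8 arrays as the probes that led to them. Over all kept members 57.6% of differences were below 0.

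**Figure D3:**
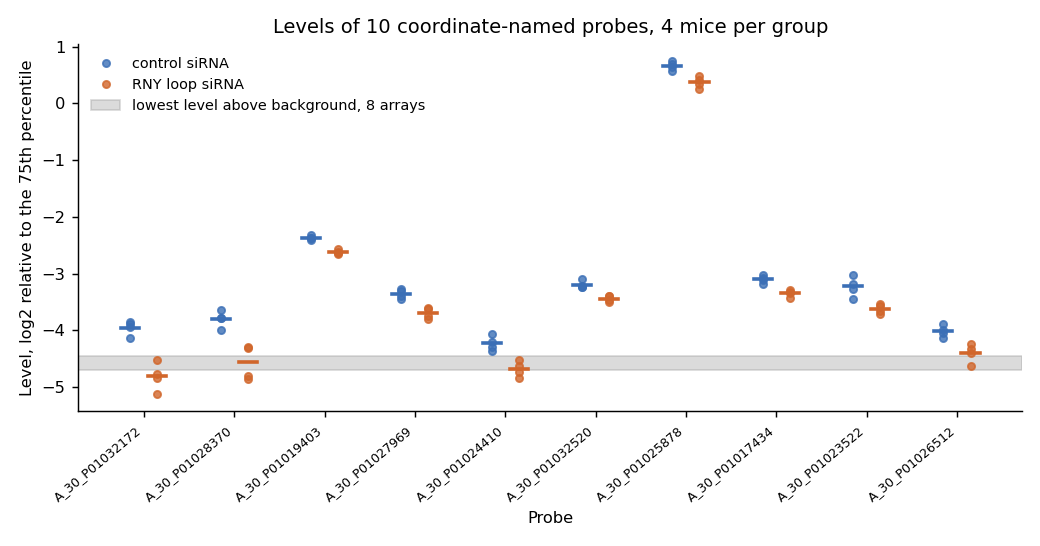
Levels (log2 relative to the 75th percentile) of the 10 probes are plotted for each mouse, control siRNA in blue and RNY loop siRNA in orange, with bars at the group means (n = 4). The grey band spans the lowest level counted as above background on the 8 arrays, and the siRNA values of A_30_P01032172 (mean -4.81) and A_30_P01024410 (mean -4.68) lie within or below it.

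The share of members above background was lower with the RNY loop siRNA in all 4 mice, and whether this exceeded the spread of the arrays depended on the detection flag and on single arrays. It was 32.1%, 34.4%, 32.7% and 32.7% in control cells of mice 1 to 4 and 31.3%, 32.2%, 31.2% and 32.4% with the siRNA. The groups overlap. The means were 33.0% ± 1.01 (SD, n = 4) and 31.8% ± 0.61 (SD, n = 4), a difference of -1.20 percentage points with an exact two-sided permutation p of 0.086, where the smallest possible p is 0.029. Other probes were also lower in all 4 mice, with a difference of -0.53 percentage points (exact permutation p of 0.20), and the gap between the 2 kinds of probe differed by -0.68 points (exact permutation p of 0.057). Adjusted over the 6 array-level comparisons made, the smallest of these p-values is 0.26. With the scanner's looser detection flag the members' difference was -2.50 points (exact permutation p of 0.029). With the first flag but without control cells of mouse 1 it was -1.49 (exact permutation p of 0.029). Without those of mouse 2 it was -0.72 (exact permutation p of 0.17). These alternatives lie outside that adjustment and cover members alone, so a like drop in other probes was not examined. Within mice, an exact sign-flip test gave 0.125, the smallest it can give with 4 mice.

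**Figure D4:**
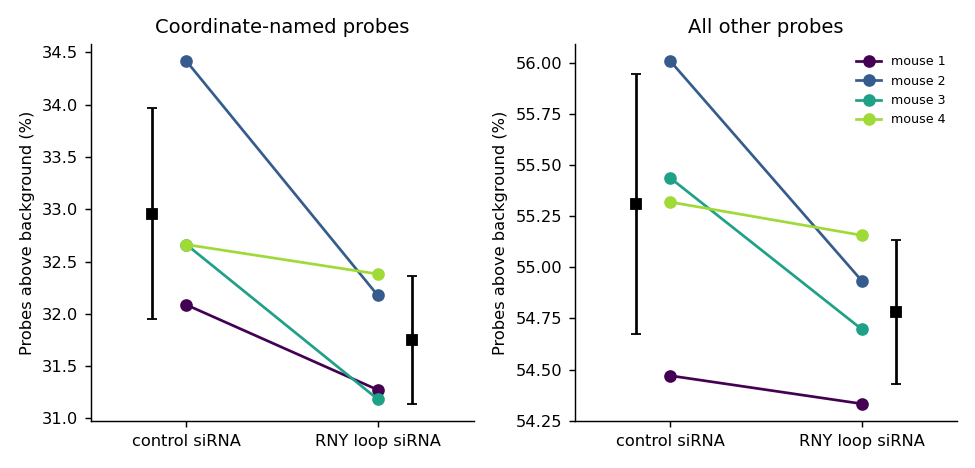
The percentage of probes above background is plotted for each mouse, with a line from control siRNA to RNY loop siRNA, for coordinate-named probes (left) and all other probes (right); black squares are group means with SD (n = 4), and the axes do not start at 0. All lines fall, from a mean of 33.0% to 31.8% on the left and from 55.3% to 54.8% on the right.

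The median level of kept members per array did not separate the groups, at -2.59 ± 0.04 in control and -2.61 ± 0.04 in siRNA cells (SD, n = 4, exact permutation p of 0.54). Members seen in 1 group only were few. Above background on 3 or 4 control arrays and 0 siRNA arrays were 38 members (0.243%, against 0.165% of all probes), and 7 members showed the reverse (0.0448%, against 0.0359%). All 45 had mean levels between -4.95 and -4.21, at the edge of detection. Beside those named above, this group included A_30_P01029807 (chr6:149307300-149322900, reverse), A_30_P01029791 (chr9:56910620-56919495, forward) and A_30_P01027097 (chr15:66682293-66722977, forward). They were dropped by the filter and not tested. Each was above background on 3 of 4 control arrays, with bounds of at least 1.13-fold, 1.22-fold and 1.16-fold. These bounds come from the arrays that picked the probes and add no evidence. A_30_P01027097 was not lower in mouse 1, at -4.74 in control and -4.73 in siRNA cells.

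Probes for both strands were present for 1042 intervals. Both strands had a kept probe in 449 (43.1%), only the forward strand in 190, only the reverse in 220, and neither in 183 (17.6%). Where the forward strand was kept, the reverse strand was kept in 70.3% of intervals, and where it was not, in 54.6%. Probes on opposite strands that overlap by at least 30 bases form 1794 pairs. Both probes were kept in 247 of them (13.8%), 1 in 665 (37.1%) and neither in 882 (49.2%).

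In 150 intervals 1 strand was above background on all 8 arrays and the other on none. The brightest was chr8:48476637-48492537, where forward probe A_30_P01032305 had means of 8.16 ± 0.18 (SD, n = 4) in control and 8.07 ± 0.15 (SD, n = 4) in siRNA cells. Reverse probe A_30_P01023531 of that interval was above background on 0 of 8. The pair on chr11:35805295-35817263 was also named by this rule, and its probes read the same 47 bases from either side. Forward probe A_30_P01024472 was above background on all 8 arrays, with means of 3.73 ± 0.15 and 3.66 ± 0.16 (SD, n = 4), and reverse probe A_30_P01017641 on 0. The other 2 intervals named by the same rule are chr3:87757295-87774970 with the forward strand bright (mean level 4.88) and chr1:52507332-52514490 with the reverse strand bright (mean level 3.59). The reverse probe of the latter, A_30_P01031145, lies 1009 bases from the same-strand probe for Nab1, a repressor of EGR transcription factors.

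In other intervals both strands were bright. On chr12:73838608-73862621, forward probe A_30_P01020570 (80.0% GC) measured 5.61, 5.43, 5.49 and 5.41 in control and 5.63, 5.42, 5.37 and 5.25 in siRNA cells. Reverse probe A_30_P01031264 (78.3% GC), which starts 73 bases away, measured 6.94, 6.76, 6.81 and 6.83 and then 7.08, 6.79, 6.82 and 6.80. Groups overlap for both strands. Forward probe A_30_P01023888 of chr17:39960567-39992817 lies 149 bases from a probe named AK145507 on the same strand, and a member of an overlapping interval (A_30_P01027180) has the same 60 bases as the AK145507 probe. The forward and reverse probes of the chromosome 17 interval had mean levels of 5.61 and 4.60. The other 4 such intervals were chr6:83368261-83407280, chr11:95627874-95640824, chr7:108209996-108216032 and chr7:111526943-111545093. The forward probe of the chromosome 11 interval shares 55 bases with a probe for Zfp652, a zinc finger gene, and the reverse probe of the last starts 33 bases from one for Trim30c, of the tripartite motif family.

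The siRNA difference was then compared between the strands of each interval. Of 462 pairs with both strands kept on the whole array, limma called 0, with a smallest adjusted p of 0.99, and 10 (2.16%) had an unadjusted p under 0.05, 9 of them among the 449 autosomal pairs. Both strands were lower in 165 autosomal pairs, both higher in 76 and the signs differed in 208. The smallest p, a pair picked after its values were seen, belonged to chr2:104702675-104736600, where the forward strand differed by 0.29 ± 0.08 and the reverse by -0.11 ± 0.07 (SE). The 95% interval of the gap was 0.16 to 0.65. For the 6 bright pairs the gaps ran from -0.15 to 0.05, and each 95% interval included 0.

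More members were called between mice than between siRNA groups. The 2 arrays of a mouse lay side by side on the slide, and effects of mouse and of slide position cannot be told apart. A moderated F-test in limma among the 4 mice, with the siRNA as a term, called 87 of 4928 kept members (1.77%, from 77 names), against 3% of all kept probes. At an unadjusted p under 0.05 there were 1145 members (23.2%), beside 27.7% of all. In 50 of the 87 the mouse farthest from the mean was mouse 1, with 41 higher and 9 lower there; in 19 it was mouse 3, in 13 mouse 4 and in 5 mouse 2. Over all called probes mouse 1 was farthest in 77.5%. The arrays of mouse 1 also had the lowest 75th percentile, and the part of array brightness in these calls was not tested. In fits chosen after seeing the data, the limma test called 0 members without mouse 1 (0.00746% of all kept probes). Without mouse 2 it called 56 members (1.14%, beside 2.84% of all kept probes). Without mouse 3 it called 4 (0.081%, beside 0.46%), and without mouse 4 it called 14 (0.28%, beside 1.10%). Each of these fits had fewer arrays. Among the other 164 kept probes of the same 77 names, 97 (59.1%) had an unadjusted p under 0.05.

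Among the 4 members with the smallest p, 2 belong to the interval chr8:41934312-41945487 on the reverse strand. A_30_P01032489 measured -1.06, 0.33, 0.21 and 0.24 in control cells of mice 1 to 4 and -0.98, 0.24, 0.26 and 0.13 with the RNY loop siRNA, so mouse 1 was low under both siRNAs (adjusted p of 0.0091 by limma). A_30_P01028856, another probe of the interval, measured -1.13, 0.06, -0.05 and -0.03, then -1.16, 0.02, 0.01 and -0.18 (limma adjusted p of 0.010). Mouse 1 was again the low sample. The other 2 kept probes, A_30_P01023638 and A_30_P01027004, were lowest in mouse 1 in both groups too, with limma adjusted p of 0.17 and 0.19. The nearest gene-named probe on that strand, for Gm9868, lies 137221 bases from A_30_P01032489.

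A_30_P01018437, on the forward strand of chr1:183142656-183163206, was high in mouse 4, at -2.61 and -2.56 in its control and siRNA cells, while the other arrays lay between -4.35 and -3.59 (limma adjusted p of 0.0045). A_30_P01024781 and A_30_P01030326 of that interval, above background on 3 and 0 arrays, were dropped by the filter. Neither stood apart in mouse 4, at -4.76 and -4.91 and at -5.42 and -4.88. A_30_P01023387, on the forward strand of chr5:31856417-31916317, was high in mouse 1, at -2.30 and -2.48, with the other arrays between -3.50 and -3.16 (limma adjusted p of 0.013). Its kept companions A_30_P01021833 and A_30_P01027058 were highest in mouse 1 in both groups, with limma adjusted p of 0.051 and 0.24. A_30_P01030488 was highest in siRNA cells of mouse 4, at -2.06 (limma adjusted p of 0.83). The siRNA differences of the 4 members with the smallest p between mice were between -0.15 and 0.16.

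**Figure D5:**
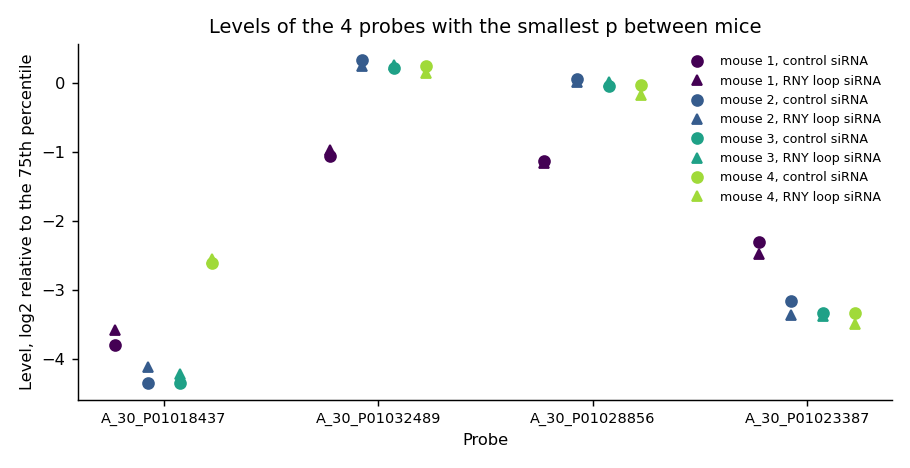
Levels (log2 relative to the 75th percentile) of the 4 probes with the smallest p between mice are plotted by mouse (colour) and siRNA (circles control, triangles RNY loop). In each probe 1 mouse stands apart under both siRNAs: mouse 4 for A_30_P01018437 at -2.61 and -2.56, and mouse 1 for the other 3.

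Among long noncoding RNAs with names of their own, from a list of 67 symbols, 43 have a probe and 28 were kept; limma called 0, and 2 had an unadjusted p under 0.05. Their median difference was 0.04, beside 0.00 for all kept probes, with 10 lower and 18 higher. The smallest p values belonged to Pvt1, a noncoding neighbour of Myc (0.23 ± 0.07, SE, higher in 4 of 4 mice), and Snhg1, a host of small nucleolar RNAs (0.14 ± 0.05, higher in 4 of 4), with Snhg5 (0.16 ± 0.08) and Snhg10 (0.13 ± 0.08) next. All 4 had a limma adjusted p of 1.00. The Pvt1 value is that of probe A_55_P2051254, and other probes of this RNA differed less. Another Pvt1 probe, A_55_P2155654, was above background on all 8 arrays and differed by 0.07. Member A_30_P01029562, identical in sequence to A_55_P2155654 and also above background on all 8 arrays, differed by 0.12. Neat1, the scaffold of paraspeckles, differed by -0.03 ± 0.10.

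The genes that degrade nuclear noncoding RNA were measured as well, because short-lived intergenic transcripts are their known substrates. Of 33 listed symbols, which include older names of the same genes, 29 genes were kept. Limma called 0, and 0 had an unadjusted p under 0.05. The median difference was 0.01. C1d, a cofactor of the exosome, had -0.39 ± 0.20 (SE) at a dim level near -4.6 in siRNA cells, and Exosc9, a subunit of the exosome ring, had 0.08 ± 0.05. Ncbp2, of the nuclear cap-binding complex, and Exosc3, an exosome cap subunit, had -0.12 ± 0.12 and -0.09 ± 0.10.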

How the data were processed

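RNA of 8 macrophage samples (4 mice, 2 siRNAs) was labelled with Cy3 on 1-colour Agilent arrays, per the labels. The deposited scanner files hold linear intensity per spot from Feature Extraction, background-subtracted and not normalized between arrays, per the file headers. A deposited table of log2 values, whose centring is not stated, was used as an alternative; its column medians were 6.26 to 6.27. The members, gene lists and tests were chosen with earlier results of these data known.

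Log2 processed intensity minus each array's 75th percentile was averaged over unflagged spots of a probe; 7 kept members lacked a value on at least 1 array. Between 48.7% and 50.7% of spots were above background and 0 were saturated, and 4 arrays per group limit the precision. Groups were compared per probe with limma 3.58.1 in R 4.3.3 (lmFit, eBayes, Benjamini-Hochberg over all kept probes, threshold 0.05), mice with its moderated F-test, strands on forward minus reverse values, and array-level values with exact permutation tests (Python 3.11.15). The code was tested on simulated data. Alternatives changed scaling, background correction, filter, blocks, weights and arrays.

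Replicate numbers mark the 4 mice of the series design. After removal of group means, the 2 arrays of mice 1 to 4 correlated at 0.59, 0.14, 0.53 and 0.25 over kept probes (0.34, 0.05, 0.28 and 0.13 over members), so mouse was used as a block in alternatives; an array of mouse 2 correlated best with an array of another mouse. Nothing in the labels says how many cultures each mouse gave.

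Named were the 10 kept members with the smallest p and 1 direction in 4 mice, the 6 brightest, 6 strand pairs bright on both strands, 4 bright on 1 strand, the 4 with the smallest p between mice, up to 6 seen in 1 group only, any member called by a blocked fit, and up to 4 genes per list. Bounds ("at least N-fold") set the bright group's mean log2 level against the mean of the higher of the probe's own level and the array's lowest level above background. They apply to the main scale and take no account of the spread between arrays. Symbols came from the array and, through accessions, from a RefSeq table for GRCm38.p6, used for names only.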

Additional observations from a re-analysis of the deposited data

Results flagged for a closer look

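Among 80 groups of 4 arrays checked, 9 had a sample far from the other 3 by Dixon's criterion, which chance gives in about 1 group of 20 for probes not picked by their values. Of the 9, 5 come from the probes chosen for the smallest p between mice, so the number is no test. In chr8:41934312-41945487 mouse 1 was the low sample under both siRNAs, at -1.06 and -0.98 for A_30_P01032489 and -1.13 and -1.16 for A_30_P01028856. Mouse 1 was the high sample for A_30_P01023387 with the RNY loop siRNA (-2.48), for the Malat1 member A_30_P01031754 in control cells (8.02), for A_30_P01031264 with the siRNA (7.08) and for A_30_P01026280 in control cells (5.18). The last value set apart was that of A_30_P01032520 in control cells of mouse 3 (-3.10).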

How the results depend on the processing

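The number of members called between the siRNA groups was 0 in all 27 alternatives, as were the list calls, and strand pairs called were 0 in 22; with the replicate block 479 members as a fixed and 547 as a random effect had an unadjusted p under 0.05. Over the other alternatives that count ran from 75 with normexp (1.52%, beside 1.93% of all) to 565 with no filter. The latter is 3.62% of 15617 members, beside 3.08% of all probes. The highest share among these alternatives was 9.84% with array weights (485 members, beside 7.99% of all). The 10 members named by p kept their direction, but 9 shrank by over 1.5 times with normexp. The difference in share above background was -2.50 with the scanner's looser detection flag (exact permutation p of 0.029) and between -1.51 and -0.72 when single arrays or mice were left out. It was -1.49 without control cells of mouse 1 (exact permutation p of 0.029). These shares are of members alone, and other probes were not set beside them. The median level difference was -0.12 with no filter (exact permutation p of 0.057), where most members were not above background. In that setting the median of the per-probe differences was 0.028 for members and 0.026 for all probes. The median level difference was 0.011 with median centring, and -0.033 to 0.0003 when arrays or mice were left out. Members called between mice numbered 793 with normexp (16.1%, beside 16.2% of all) and 289 with normexp and quantile (5.86%, 9.37%). There were 245 in the deposited table (4.97%, 7.59%) and 15 with no filter (0.096%, 0.22%). When all 8 arrays had to be above background there were 135 (3.32%, 4.84%). When 1 mouse was left out there were 0 to 56 (0% to 1.14%, beside 0.0075% to 2.84% of all). The cause of these changes was not tested. Signal limits the members: 54.9% were above background on 0 arrays.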
